A study of Mus musculus with 2 samples.

Results

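The 6 genes described here are Apool, Apoo, Immt, Chchd3, Chchd6 and Opa1, out of 32285 genes counted in nuclei of mouse hippocampus. They were chosen because Apool, one of the genes that organise the folds of the inner mitochondrial membrane, was higher in CA1 and dentate granule nuclei of a Capza2 heterozygote than in wild type, and the question was whether the genes it works with differed too. The values of Apool in those nuclei are therefore the reason for the choice and are given as a description.

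The inner mitochondrial membrane is folded into cristae, which hold the respiratory chain and ATP synthase and join the rest of the membrane at narrow crista junctions. A complex called MICOS holds these junctions open and ties them to the outer membrane. Immt encodes its core subunit, Chchd3 and Chchd6 encode coiled-coil-helix subunits that bind that core, and Apoo and Apool encode a pair of related apolipoprotein O family subunits, of which the Apool protein binds the mitochondrial lipid cardiolipin. Opa1 encodes a dynamin-like GTPase that fuses inner membranes and keeps cristae tight. In neurons these proteins serve mitochondria that supply axons, dendrites and synapses.

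The tissue was hippocampus, sampled as 1 library from mice labelled CAPZA2+/-, a heterozygous knockout of an actin capping protein subunit gene, and 1 library from mice labelled wild-type. The labels call the cells mixed neurons and glia and give no age, strain, sex or number of animals per library, nor the deleted stretch of the gene. What was counted is nuclear RNA, as unique molecular identifiers (UMIs) in droplets, so nothing here measures the proteins or the membranes. With 1 library per genotype no difference has a replicate check and no test was possible: every interval below is an exact 95% interval that covers counting error only, and a difference between the libraries and a difference between the genotypes cannot be told apart.

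After filtering, 6795 heterozygote nuclei with a median of 5770 UMIs and 6094 wild-type nuclei with a median of 6658.5 UMIs were used. Capza2 itself had 67.5 CPM (its counts scaled to a fixed total of UMIs per library or class) in heterozygote nuclei and 86.0 CPM in wild-type nuclei, a log2 ratio of -0.35 (-0.41 to -0.29). Eif2s3y, a gene of the Y chromosome, was at 191 CPM in the heterozygote library and 175 CPM in the wild-type library, while Xist was at 1.00 and 0.597 CPM. The libraries shared 13 cell barcodes, 10 of them among the nuclei used. Other features of the libraries moved with the genotype label in all nuclei or in most classes: Ttr, made by choroid plexus, was at 175 CPM in heterozygote dentate granule nuclei and 51.5 CPM in wild type, hemoglobin genes were at 28.2 and 13.5 CPM in the same nuclei, and transcripts of the mitochondrial genome were at 0.0572% of UMIs in the heterozygote library and 0.0905% in wild type.

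The nuclei were clustered and named from marker genes, and the 8 named classes that reached 200 nuclei in both libraries are used below. These were dentate granule-like (2038 heterozygote and 1475 wild-type nuclei), CA1 pyramidal-like (809 and 932), CA3 pyramidal-like (219 and 209), subicular, entorhinal or cortical excitatory-like (207 and 282), inhibitory neuron-like (322 and 444), astrocyte-like (332 and 267), oligodendrocyte-like (1130 and 799) and microglia-like nuclei (327 and 238). The marker lists that gave these names stood well above the other nuclei, as with CA1 markers at 1089 CPM in heterozygote and 974 CPM in wild-type CA1-like nuclei, against 203 CPM in all other nuclei. Below they go by the cell type alone, and the fourth is called subicular or cortical.

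Apool lies on chromosome X, on the plus strand at 112311334 to 112372755 of GRCm38, and no other annotated gene overlaps it. Its relative Apoo lies on the same chromosome at 94367117 to 94417093, 17.9 Mb away. Immt (71831331 to 71877388), Chchd3 (32790976 to 33060260) and Chchd6 (89383146 to 89595652) are all on chromosome 6, the chromosome of Capza2, at distances of 54.2 Mb, 15.1 Mb and 71.7 Mb from it. Opa1 is on chromosome 16 at 29579334 to 29654884. Chchd3 overlaps the antisense gene Gm14540, which had 364 UMIs in all, so some reads of that locus may belong to either gene.

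The 250 bases before the RefSeq start of Apool and of Apoo (RefSeq, GRCm38.p6; chrX:112311102-112311351 and chrX:94366860-94367109, plus strand) are shown because these sister genes differ in the measurements that follow. Capitals mark CpG pairs, of which Apool has 8 and this start of Apoo has 20, beside a median of 6 over all promoters of that table.
Apool: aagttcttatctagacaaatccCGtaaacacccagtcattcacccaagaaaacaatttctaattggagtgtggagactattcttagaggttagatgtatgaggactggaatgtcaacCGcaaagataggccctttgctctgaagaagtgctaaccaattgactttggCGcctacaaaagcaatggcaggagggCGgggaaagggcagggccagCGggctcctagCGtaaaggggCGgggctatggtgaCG
Apoo: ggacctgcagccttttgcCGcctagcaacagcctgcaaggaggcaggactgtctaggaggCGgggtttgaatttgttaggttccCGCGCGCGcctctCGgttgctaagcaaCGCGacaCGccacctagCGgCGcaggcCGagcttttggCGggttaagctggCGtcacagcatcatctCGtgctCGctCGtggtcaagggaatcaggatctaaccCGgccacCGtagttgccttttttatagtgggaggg
All 6 genes were found in the promoter table. A search of both strands for the NRF1 motif (GCGCA and GCGC with 1 base between), the ETS motif (CCGGAAG) and the YY1 motif (AAGATGGCG) found none of them in these windows of Apool, Apoo or Chchd6. The NRF1 letters stood once in the Opa1 window, 59 bases before the start, and are in 3.74% of all such windows. The ETS letters stood once in the Immt window (119 bases before the start) and once in the Chchd3 window (130 bases), and are in 6.91% of all windows, while the YY1 letters are in 0.606% of them and in none of the 6 genes' windows. These are matches of letters and say nothing of binding.

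Apool, which encodes the cardiolipin-binding MICOS subunit, was higher in heterozygote neurons of every class measured, and by most in the pyramidal and inhibitory classes. In CA1 it had 227 UMIs (21.0 CPM) in heterozygote nuclei, against 62 UMIs (5.63 CPM) in wild-type nuclei, a ratio of 3.74 (2.81 to 5.03) or 1.90 on the log2 scale (1.49 to 2.33). Dentate granule nuclei held 295 Apool UMIs (19.3 CPM) in the heterozygote library and 109 UMIs (9.92 CPM) in wild type, a log2 ratio of 0.96 (0.64 to 1.29).

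The other neurons, which the choice of Apool did not name, had ratios of the CA1 size, though they come from the same 2 libraries. CA3 nuclei had 62 Apool UMIs (15 CPM) in the heterozygote library and 13 UMIs (4.20 CPM) in wild type, a log2 ratio of 1.84 (0.96 to 2.83). Subicular or cortical nuclei had 40 UMIs (15.8 CPM) in the heterozygote library and 12 UMIs (3.73 CPM) in wild type, a log2 ratio of 2.08 (1.12 to 3.14). Inhibitory neurons, which use GABA and come from another lineage, had 83 UMIs (17.7 CPM) in the heterozygote library and 29 UMIs (5.35 CPM) in wild type, a log2 ratio of 1.72 (1.10 to 2.39). In each of these 3 classes the Poisson intervals of the heterozygote and wild-type levels stayed apart. The smaller CA2 class, with 155 heterozygote and 233 wild-type nuclei, had 36 and 14 UMIs and a log2 ratio of 1.69 (0.76 to 2.69).

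In the glial classes the ratios were nearer to equal than in pyramidal and inhibitory nuclei. The oligodendrocyte interval overlaps those of dentate granule, CA3, subicular or cortical, inhibitory and CA2 nuclei, however, and only that of CA1 lies wholly above it. Oligodendrocyte precursors, a smaller class, had a log2 ratio of 0.99 from 15 heterozygote and 10 wild-type UMIs. Oligodendrocytes, the myelin-forming cells, had 84 Apool UMIs (37.7 CPM) in the heterozygote library and 38 UMIs (24.0 CPM) in wild type, a log2 ratio of 0.65 (0.08 to 1.25). Astrocytes had 22 UMIs (22.3 CPM) in heterozygote nuclei and 14 UMIs (17.6 CPM) in wild-type nuclei, and microglia had 12 UMIs in each library (23.3 CPM in heterozygote and 30.3 CPM in wild-type nuclei). Both classes are under the floor of 50 UMIs set for a comparison. Their log2 intervals, -0.69 to 1.42 in astrocytes and -1.66 to 0.90 in microglia, hold 0 and end below the CA1 ratio of 1.90, so smaller differences could not be told from none at this depth.

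**Figure D1:**
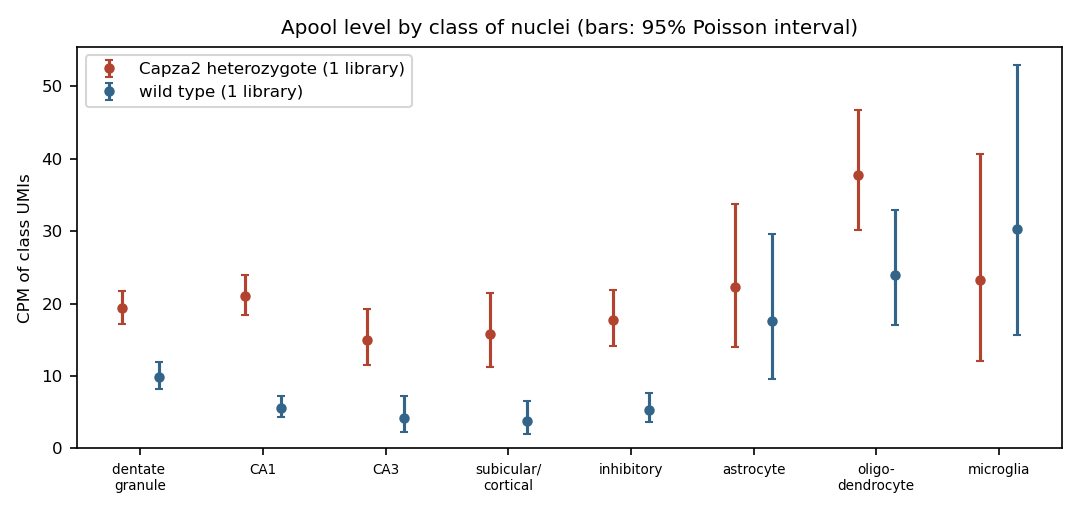
Apool level in CPM of each class's summed UMIs (linear axis) in the Capza2 heterozygote library and the wild-type library, 1 library each, with bars for the 95% Poisson interval. The 5 neuronal classes on the left have heterozygote levels between 15 and 21.0 CPM and wild-type levels between 3.73 and 9.92 CPM with bars that do not meet, while the bars meet in the 3 glial classes.

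The order of the classes differed between the libraries. In heterozygote nuclei Apool ran between 15 CPM in CA3 and 37.7 CPM in oligodendrocytes. In wild-type nuclei it ran between 3.73 CPM in subicular or cortical nuclei and 30.3 CPM in microglia, and all 3 glial classes stood above all 5 neuronal ones, an order that counts per nucleus, given further on, did not show. Among neighbours in that wild-type order, only dentate granule and CA1 nuclei had levels whose intervals stayed apart, and no neighbours did so in the heterozygote order.

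More nuclei held an Apool UMI in the heterozygote library, and few held several. Of the heterozygote CA1 nuclei, 613 had no Apool UMI, 168 had 1, 25 had 2 and 3 had more, against 876, 51, 4 and 1 of the wild-type CA1 nuclei. The share with at least 1 UMI was 24.2% in heterozygote and 6.01% in wild-type CA1 nuclei, and 12.9% and 6.51% in dentate granule nuclei. CA3 nuclei had shares of 23.3% in heterozygote and 6.22% in wild-type libraries, and inhibitory neurons 18.6% and 5.63%. In microglia, the class with the fewest UMIs per nucleus, the share was 3.67% in heterozygote and 5.04% in wild-type nuclei. Thinned to 1000 UMIs per nucleus, the CA1 shares were 1.86% in heterozygote and 0.322% in wild-type nuclei and the dentate granule shares 2.31% and 1.09%.

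Apool UMIs per nucleus followed the size of the nuclear RNA pool in one library and not in the other. Median UMIs per nucleus ran from 1464 in microglia to 16834 in CA3 in the heterozygote library, and over these classes Apool ran from 0.0367 to 0.283 UMIs per nucleus, a 7.71-fold range. In the wild-type library the medians ran from 1469.5 to 13388, and Apool kept between 0.0426 and 0.0739 UMIs per nucleus, a 1.74-fold range. Chchd3, as a measured comparison, spanned 12.8-fold in heterozygote and 11.0-fold in wild-type nuclei. Ttr, whose UMIs were found in all 8 classes, spanned 1.11-fold in heterozygote and 1.72-fold in wild-type nuclei. Barcodes that failed the filters had 3 Apool UMIs in 590 heterozygote barcodes (0.00508 per barcode) and 1 in 88 wild-type barcodes (0.0114 per barcode, interval 0.000288 to 0.0633). The share of nuclei with an Apool UMI likewise ran only between 3.55% and 6.51% over the wild-type classes. The part of free RNA in these Apool levels was not tested.

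**Figure D2:**
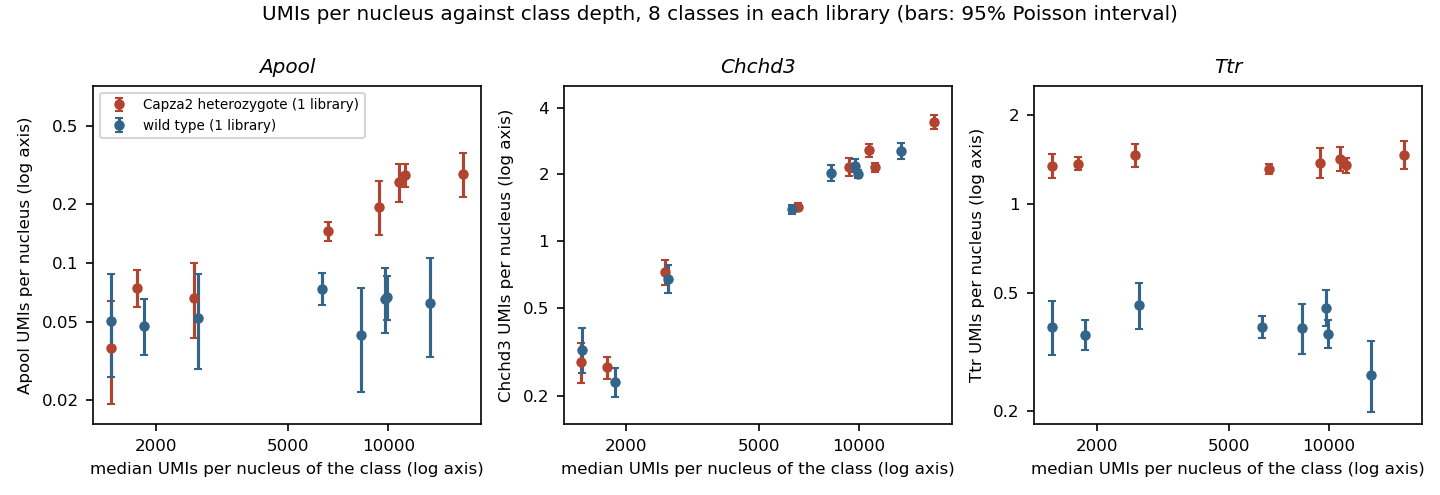
UMIs per nucleus of Apool, Chchd3 and Ttr (log axes) against the median UMI count per nucleus of the class, 8 classes in each library, with bars for the 95% Poisson interval. Apool climbs with depth over the heterozygote classes (0.0367 to 0.283) and stays between 0.0426 and 0.0739 over the wild-type classes, Chchd3 climbs in both, and Ttr is flat in both at a higher level in the heterozygote.

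Within single clusters, Apool was higher in heterozygote nuclei in 24 of the 25 clusters with at least 10 Apool UMIs, microglia being the exception. In 16 of them the interval of the log2 ratio lay above 0. The clusters are parts of the same 2 libraries, not replicates, and include those of CA1 and dentate granule nuclei, on which Apool was chosen. Some reached 10 UMIs through the heterozygote side, as a subicular or cortical cluster with 13 heterozygote and 1 wild-type UMIs. No share of all genes was counted for clusters, so nothing is read from this count. The CA1 class is made of 2 clusters, which had 160 and 41 UMIs (log2 ratio 1.95) and 67 and 21 UMIs (log2 ratio 1.77) in heterozygote and wild-type nuclei. The dentate granule class also has 2 clusters, one holding 50.2% of heterozygote and 67.2% of wild-type granule nuclei, with log2 ratios of 0.95 and 1.01. CA1 nuclei under the class's median depth had a log2 ratio of 1.98 and those over it 1.92, and dentate granule nuclei 0.75 and 1.07. Inhibitory nuclei had 2.54 and 1.45, oligodendrocytes 0.53 (-0.54 to 1.70) and 0.72 (0.04 to 1.44), astrocytes 0.03 and 0.59, and microglia -0.81 and -0.12, the astrocyte and microglia values from fewer than 50 UMIs.

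Transcripts of other cells also differed between the libraries in these classes, some by more than Apool. The choroid plexus gene Ttr had a log2 ratio of 1.77 in dentate granule nuclei and 2.12 in CA3, where Apool had 0.96 and 1.84, and the myelin gene Mog had 1.91 in CA1. In CA1, 6 of 7 oligodendrocyte markers were higher in heterozygote nuclei and none was at 0 in either library, with sums of 135 CPM in heterozygote and 106 CPM in wild-type nuclei, a log2 ratio of 0.35. In inhibitory neurons all 7 were higher, with sums of 311 and 167 CPM. In subicular or cortical nuclei 1 of 7 was higher, with sums of 143 CPM in heterozygote and 221 CPM in wild-type nuclei. That class had log2 ratios of 2.96 for the neuropeptide gene Npy and 2.16 for the neuropeptide gene Sst, and their part was not tested. In dentate granule nuclei the sums were 431 and 407 CPM. CA3 had 6 of the 7 higher, with sums of 84.7 CPM in heterozygote and 61.0 CPM in wild-type nuclei, a log2 ratio of 0.47. Sums of 9 microglia markers had log2 ratios of 0.18 in dentate granule, 0.27 in CA1 and 0.29 in inhibitory nuclei. The ratios were 0.23 (-0.04 to 0.50) in subicular or cortical nuclei and -0.03 (-0.27 to 0.21) in CA3. Astrocyte markers had -0.11 in dentate granule, 0.10 in CA1, 0.22 in CA3, -0.10 in subicular or cortical and 0.28 in inhibitory nuclei. In oligodendrocytes themselves Apool was at 37.7 CPM in heterozygote and 24.0 CPM in wild-type nuclei. The part of these markers, of Ttr, of hemoglobin and of mitochondrial transcripts in the Apool result was not tested.

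Apoo, which encodes the sister subunit of Apool in MICOS, was close to level in the nuclei that Apool was chosen on. It had 349 UMIs (32.3 CPM) in heterozygote CA1 nuclei and 388 UMIs (35.2 CPM) in wild-type CA1 nuclei, a log2 ratio of -0.12 (-0.34 to 0.09). Dentate granule nuclei had 609 UMIs (39.9 CPM) in the heterozygote library and 454 UMIs (41.3 CPM) in wild type, a log2 ratio of -0.05 (-0.23 to 0.13). Apoo lay above both intervals with nuclei thinned to 1000 UMIs. It had 0.39 in CA1, from 25 and 22 UMIs, and 0.36 in granule nuclei, from 89 and 50 UMIs. Its highest ratios were 0.53 (-0.04 to 1.11) in oligodendrocytes, from 81 and 40 UMIs, and 0.42 (-0.01 to 0.85) in subicular or cortical nuclei, from 95 and 90 UMIs, and both intervals reach 0. Inside those classes single clusters went further. One of the 2 subicular or cortical clusters had 46 Apoo UMIs in heterozygote and 30 in wild-type nuclei, a log2 ratio of 1.10 (0.40 to 1.81), and subicular or cortical nuclei under the class's median depth had 40 and 19 UMIs, a log2 ratio of 1.71 (0.89 to 2.58). One inhibitory cluster had 63 and 41 Apoo UMIs, a log2 ratio of 0.78 (0.19 to 1.38). Apoo was highest in inhibitory neurons in both libraries, at 47.9 CPM in heterozygote and 49.8 CPM in wild-type nuclei.

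Immt, the gene of the MICOS core, stood close to level or slightly lower in heterozygote neurons. In CA1 it had 511 UMIs (47.4 CPM) in heterozygote nuclei and 610 UMIs (55.4 CPM) in wild-type nuclei, a log2 ratio of -0.23 (-0.40 to -0.05). Granule nuclei had 861 UMIs (56.4 CPM) in the heterozygote library and 656 UMIs (59.7 CPM) in wild type, a log2 ratio of -0.08 (-0.23 to 0.07). Oligodendrocytes held its highest level, 123 CPM in heterozygote and 108 CPM in wild-type nuclei.

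Chchd3, which encodes a subunit that joins the MICOS core to the outer membrane, was close to equal between the libraries. It had 9884 UMIs (177 CPM) in heterozygote nuclei and 9368 UMIs (175 CPM) in wild-type nuclei, a log2 ratio of 0.02 (-0.02 to 0.06), and it ran between -0.11 and 0.23 over the 8 classes. CA1 had 1741 and 1873 UMIs in heterozygote and wild-type nuclei, a log2 ratio of -0.08 (-0.17 to 0.02). Astrocytes held its highest level, 244 CPM in heterozygote and 228 CPM in wild-type nuclei, and oligodendrocytes its lowest, 137 and 117 CPM.

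Chchd6, the other coiled-coil-helix gene, was lower in heterozygote pyramidal nuclei by a small amount. It had 853 UMIs (79.1 CPM) in heterozygote CA1 nuclei and 984 UMIs (89.3 CPM) in wild-type CA1 nuclei, a log2 ratio of -0.18 (-0.31 to -0.04). CA3 nuclei had 258 UMIs (62.4 CPM) in the heterozygote library and 248 UMIs (80.0 CPM) in wild type, a log2 ratio of -0.36 (-0.62 to -0.10). Dentate granule nuclei had 61.7 and 60.5 CPM, a log2 ratio of 0.03 (-0.12 to 0.17). Over all nuclei the log2 ratio was -0.15 (-0.22 to -0.09), a value that also holds the unlike class make-up of the libraries. Oligodendrocytes in the heterozygote library had 67 UMIs (30.1 CPM), against 66 UMIs (41.7 CPM) in wild type, a log2 ratio of -0.47 (-0.98 to 0.04).

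Opa1, the inner-membrane fusion gene, had 797 UMIs (73.9 CPM) in heterozygote CA1 nuclei and 824 UMIs (74.8 CPM) in wild-type CA1 nuclei, a log2 ratio of -0.02 (-0.16 to 0.12). Granule nuclei had 1137 UMIs (74.5 CPM) in the heterozygote library and 774 UMIs (70.4 CPM) in wild type, a log2 ratio of 0.08 (-0.05 to 0.21). It ran between -0.13 and 0.20 over the 8 classes and was highest in microglia, at 110 CPM in heterozygote and 95.9 CPM in wild-type nuclei.

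**Figure D3:**
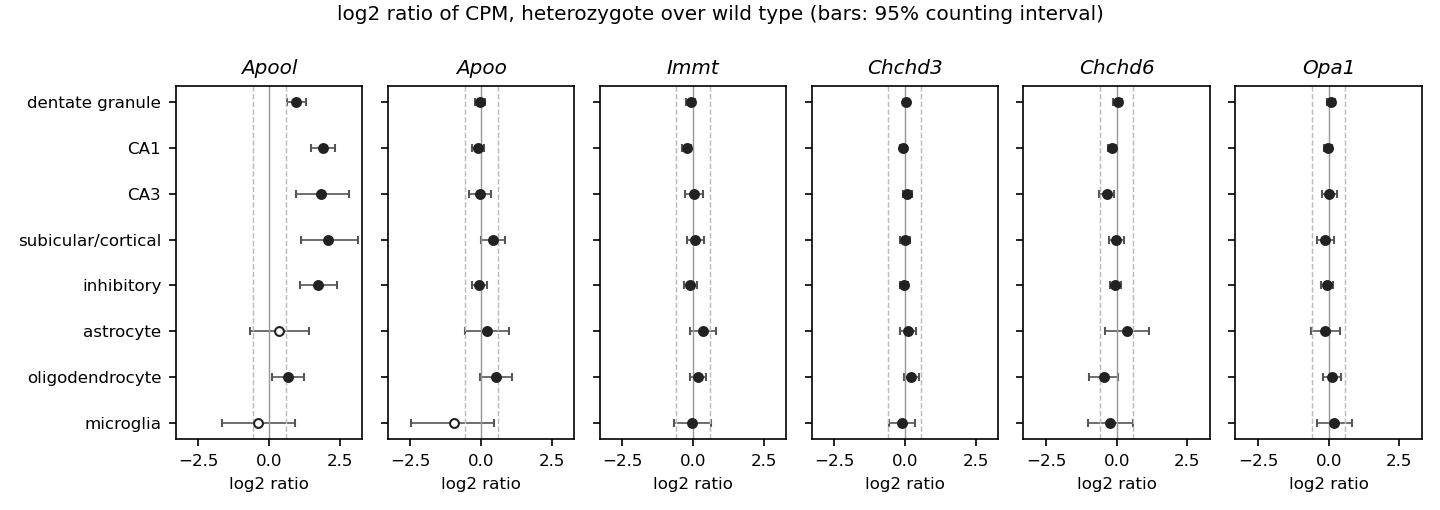
Heterozygote to wild-type ratio of CPM on the log2 scale of each of the 6 genes in 8 classes, with bars for the 95% counting interval, dashed lines at 1.5-fold in either direction and open points for pairs under 50 UMIs in sum. Apool lies right of the dashed line in the 5 neuronal classes and in oligodendrocytes, and each filled point of the other 5 genes lies between the dashed lines.

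With the floor of 50 UMIs summed over the libraries, Apool was the only one of the 6 at least 1.5-fold apart in either direction, in dentate granule, CA1, CA3, subicular or cortical, inhibitory and oligodendrocyte nuclei and in all nuclei together. In dentate granule nuclei 1 of 6 was past 1.5-fold higher, beside 2.01% of all genes, and in CA1 1 of 6, beside 1.5% of all genes; these 2 contrasts chose Apool, so nothing is read from its count there. The same count was 1 of 6 in CA3, subicular or cortical, inhibitory and oligodendrocyte nuclei, beside 1.3%, 1.94%, 1.97% and 3.27% of all genes. It was 0 of 5 in astrocytes, beside 5.63%, and 0 of 4 in microglia, beside 5.31%. Over all nuclei it was 1 of 6, beside 1.99%. The floor is on the sum of both libraries, so a high heterozygote count helps a gene to reach it. Apool reached it with 62 heterozygote and 13 wild-type UMIs in CA3, and with 40 and 12 in subicular or cortical nuclei. It stayed under the floor in astrocytes and microglia, so these counts of classes are partly set by the floor. None of the 6 was 1.5-fold lower in any of the 8 classes or in all nuclei. The share of all genes past that line was 1.65% in dentate granule, 2.34% in CA1, 4.4% in CA3, 3.84% in subicular or cortical, 2.57% in inhibitory, 2.98% in astrocyte, 2.39% in oligodendrocyte and 4.75% in microglia nuclei, and 1.84% over all nuclei. In single clusters, named or not, 4 of 106 pairs of a cluster and one of the other 5 genes were 1.5-fold higher and 2 were lower. The share of all genes past that line was not counted in single clusters, so nothing is read from these pairs. The median log2 ratio of the 6 was 0.03 in dentate granule nuclei and -0.10 in CA1, where the medians over all genes were 0.00 and -0.04.

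Ordered by log2 ratio, Apool was at place 2 of 12810 genes in CA1, after Mog, a myelin gene with 59 UMIs in heterozygote and 16 in wild-type nuclei. It was at place 3 in CA3 and in subicular or cortical nuclei, at place 8 of 11704 in inhibitory neurons, at place 31 of 13381 in dentate granule nuclei and at place 192 of 8744 in oligodendrocytes. Above it in subicular or cortical nuclei were the neuropeptide genes Npy (252 heterozygote and 41 wild-type UMIs) and Sst (490 and 139). Of 9497 genes measured in at least 5 classes, 3 (0.0316%) were at least 1.5-fold higher in the heterozygote in every class in which they were measured. These were Apool (6 of 6 classes, median log2 ratio 1.78), Ttr (8 of 8, 1.76) and the predicted gene AC149090.1 (8 of 8, 1.70). Dentate granule and CA1 nuclei, on which Apool was chosen, are among its 6 classes. Astrocytes and microglia are not, as Apool was under the UMI floor there.

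**Figure D4:**
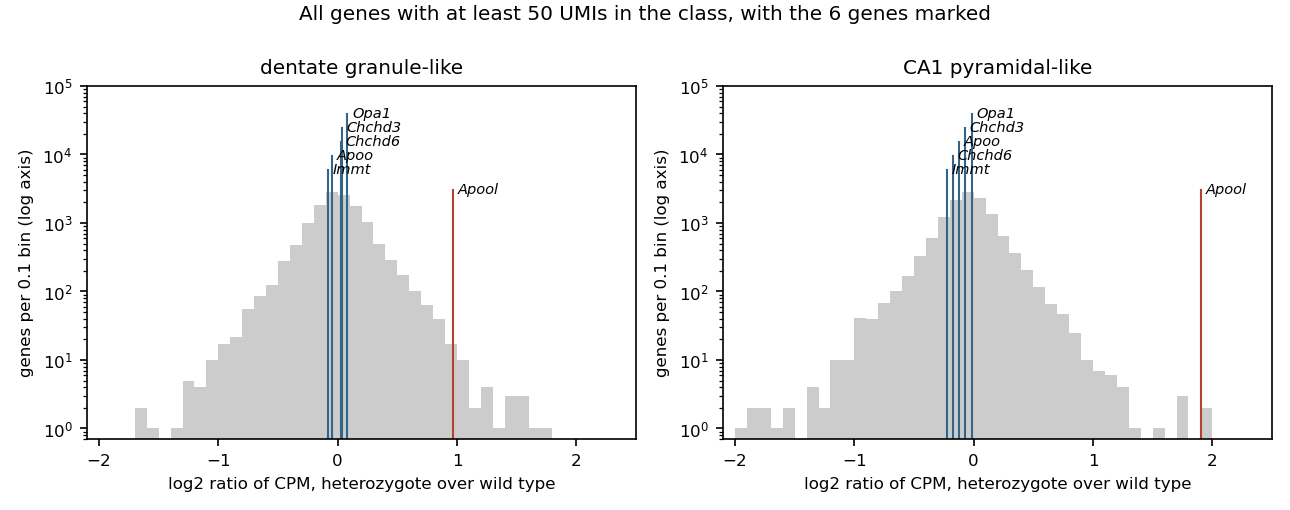
Number of genes per 0.1 of the heterozygote to wild-type log2 ratio (log axis) among genes over the floor of 50 UMIs, in dentate granule nuclei (left) and CA1 nuclei (right), with lines for the 6 genes whose heights only separate the labels. Apool lies at 0.96 and 1.90 in the right tail, and the other 5 genes lie between -0.23 and 0.08. The share of genes with a higher ratio than these 5 ran from 33.6% to 67.3% in dentate granule nuclei. In CA1 it ran from 44.7% for Opa1 to 82.8% for Immt.

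Genes with a pattern like that of Apool were ranked by Pearson's r of log2(CPM + 1) over 12 points, 6 classes in each of 2 libraries, among 7400 genes. The 5 highest were Sfi1 (r = 0.94), Ttr (0.94), Ing4 (0.89), Gm3448 (0.88) and Bet1l (0.87). The 12 points share their libraries and depths, so these values only describe likeness. Except for Ttr these genes differed less than Apool between the libraries, with log2 ratios over all nuclei of 0.33 for Sfi1 and 0.12 for Ing4. The other cristae genes stood lower on this measure, at 0.55 for Opa1, 0.52 for Immt, 0.01 for Apoo, -0.49 for Chchd3 and -0.70 for Chchd6.

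The neighbours of Apool on chromosome X had smaller ratios over all nuclei. On the upstream side Hdx (614 kb away), Rps6ka6, Pou3f4 and Gm44593 (1499 kb away) had log2 ratios of -0.03, -0.17, 0.15 and -0.01, each with an interval that holds 0. Downstream, Zfp711 had -0.15 (-0.28 to -0.02), Chm 0.05 and Dach2 0.09. By class, Zfp711 had -0.16 (-0.55 to 0.22) in dentate granule nuclei and 0.23 (-0.03 to 0.50) in CA1. The nearest measured gene, Satl1, a gene of the spermidine acetyltransferase family that lies on the opposite strand 11.5 kb past the end of Apool, had 60 UMIs in heterozygote and 40 in wild-type nuclei, a log2 ratio of 0.53 (-0.07 to 1.14). In dentate granule nuclei Satl1 had 27 UMIs in the heterozygote library and 7 in wild type (1.47, 0.24 to 2.92), and in CA1 it had 5 and 9, all under the floor of 50 UMIs. Of 560 measured genes of chromosome X, 11 (1.96%) were at least 1.5-fold higher over all nuclei, beside 1.99% of all genes. Another 11 were lower, beside 1.84% of all genes. None of the 560 had a higher ratio than Apool over all nuclei, while 8 genes of chromosome X did in oligodendrocytes and 1 in dentate granule nuclei.

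**Figure D5:**
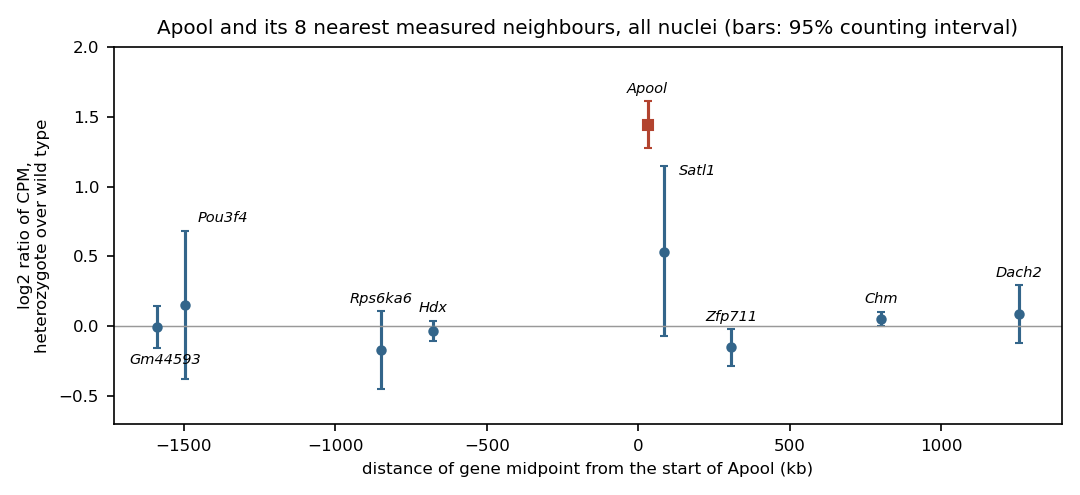
Heterozygote to wild-type ratio of CPM on the log2 scale over all nuclei for Apool (square) and its 8 nearest measured neighbours (circles) against the distance of each gene's midpoint from the start of Apool in kb, with bars for the 95% counting interval. Apool stands at 1.44, Satl1 beside it at 0.53 with a bar that reaches below 0, and the other 7 genes lie between -0.17 and 0.15.

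A wider set of 40 genes that shape mitochondrial membranes was counted in the same way. In CA1, 0 of 40 were 1.5-fold apart in either direction, beside 3.84% of all genes, with a median log2 ratio of -0.06 and a range of -0.31 to 0.30. In dentate granule nuclei 1 of 40 was, beside 3.66% of all genes, with a median of 0.04. That gene was Oma1, the stress-activated inner-membrane protease that cuts OPA1, with 183 UMIs (12.0 CPM) in heterozygote granule nuclei and 86 UMIs (7.83 CPM) in wild type, a log2 ratio of 0.62 (0.24 to 1.00). In CA1 the Oma1 levels were 9.45 CPM in heterozygote and 11.6 CPM in wild-type nuclei, a log2 ratio of -0.30 (-0.69 to 0.09). Over all nuclei 0 of 40 passed, beside 3.82% of all genes, and the log2 ratios ran between -0.18 and 0.31. Past 1.5-fold in either direction were 2 of 38 in CA3, beside 5.7% of all genes, 0 of 35 in subicular or cortical nuclei, beside 5.78%, 1 of 39 in inhibitory neurons, beside 4.55%, and 0 of 37 in oligodendrocytes, beside 5.66%. Astrocytes had 3 of 25, beside 8.61%, and microglia 2 of 15, beside 10.1%. These counts lie near what the shares of all genes give for so few genes, and nothing is read from them about the set.

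The remaining MICOS subunits were measured in the same nuclei. Micos10, which builds crista junctions, had 56.4 CPM in heterozygote dentate granule nuclei and 53.2 CPM in wild type (log2 ratio 0.08), and 41.9 and 40.0 CPM in CA1 (0.07). Micos13, which links the core and the apolipoprotein O subunits, had 28.2 CPM in heterozygote granule nuclei and 23.2 CPM in wild type (0.28, interval 0.06 to 0.51), and 15.6 and 15.9 CPM in CA1 (-0.03). Of the partners in the outer membrane bridge, Mtx2 had log2 ratios of 0.13 in granule nuclei and -0.07 in CA1, and Dnajc11 had log2 ratios of -0.10 and -0.29 (-0.52 to -0.06).

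The proteases and membrane-shape genes stood on both sides of level. Yme1l1, which also cuts OPA1, had log2 ratios of 0.01 in dentate granule and -0.05 in CA1 nuclei, and Afg3l2, an inner-membrane AAA protease, had log2 ratios of 0.15 and -0.26 (-0.46 to -0.05). Chchd2 had 145 CPM in heterozygote granule nuclei and 123 CPM in wild type (0.24, interval 0.14 to 0.34), while in CA1 it had 76.4 and 81.4 CPM (-0.09). Its relative Chchd10 had log2 ratios of 0.17 and -0.01 in the same classes. Of the other membrane-shape genes, named here after their values were seen, Tmem11 had 0.45 (0.11 to 0.81) in granule nuclei and -0.19 in CA1 on the log2 scale, and Letm1 had -0.29 (-0.53 to -0.04) and 0.05. Dnm1l, the fission GTPase, had log2 ratios of -0.02 and -0.03, and its receptor gene Mff had 0.15 and 0.02.

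The genes of ATP synthase dimers, which bend the crista rim, and of cardiolipin complete the set. Atp5l had 96.8 CPM in heterozygote granule nuclei and 81.4 CPM in wild type (log2 ratio 0.25, interval 0.13 to 0.37), and 59.5 and 60.5 CPM in CA1 (-0.02). Atp5md had log2 ratios of 0.10 in granule nuclei and -0.11 in CA1. The cardiolipin synthase gene Crls1 had log2 ratios of -0.15 and -0.04, and Taz, which remodels cardiolipin, had -0.12 and -0.04.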

How the data were processed

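Raw, unnormalized UMI counts were deposited for each library, made by the authors with Cell Ranger 7.1.0 on mm10 per the submitters' processing notes. The sources used here do not say whether intronic reads were counted. Of 32285 gene IDs, 32158 were found in GENCODE M21, which gave coordinates. The total was 62702888 UMIs in the heterozygote and 58701532 in the wild-type library.

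All further steps used Python 3.11.15 with scanpy 1.11.5, scipy 1.17.1 and numpy 2.4.6. Barcodes with at least 500 genes and at most 5% mitochondrial UMIs were kept (7211 heterozygote, 6424 wild type), and the highest Scrublet doublet scores were removed in each library at 0.8% per 1000 barcodes (416 and 330). Nuclei of both libraries were clustered together on 2000 variable genes, without the genes described here, 30 components, 15 neighbours and Leiden resolution 1. A cluster was named from its markers' mean log2 ratio to the other clusters. After the data were seen, regional excitatory names were compared among excitatory clusters alone, and clusters that were mixed or shallow stayed unnamed. UMIs were summed per class and library, and scaled to CPM. Ratios have exact conditional binomial intervals, levels exact Poisson intervals and shares Clopper-Pearson intervals, all at 95%. UMIs of 1 droplet share its lysis and PCR, so these cover counting error only. The ratio code was tested on simulated data.

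The 6 genes and all gene lists were chosen with earlier results of these data known. Pathway genes were named as those past 1.5-fold with an interval without 0 in dentate granule or CA1 nuclei, then the 2 with most UMIs in each list, and neighbours as the 4 nearest measured genes on each side. Alternatives covered doublets, filters, resolution, thinning, weighting, scaling, the UMI floor and, chosen after seeing the data, nuclei of each class above and below its median depth.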

Additional observations from a re-analysis of the deposited data

How the results depend on the processing

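Apool stayed above 0 on the log2 scale in 79 of 79 alternative values, over all nuclei and the classes with enough UMIs as reported. It was at least 1.5-fold higher in 77 of them, and no alternative reversed a value. The floor was not applied again to these ratios, so some rest on few UMIs. Thinned CA1 had 15 in heterozygote and 3 in wild-type nuclei, and subicular or cortical nuclei under the median depth had 11 and 2. Thinned CA3 and subicular or cortical nuclei had no wild-type Apool UMI and gave no ratio. All values reuse the same 2 libraries, so they only describe the processing. Ranges were 1.90 to 2.53 in CA1, 0.75 to 1.08 in dentate granule, 1.54 to 2.35 in CA3, 1.55 to 3.09 in subicular or cortical, 1.14 to 2.54 in inhibitory and 0.51 to 1.01 in oligodendrocyte nuclei. Values past the reported interval were 2.53 in CA1 with nuclei thinned to 1000 UMIs, 2.54 in inhibitory nuclei under the class's median depth, and 1.17 (thinned) and 1.05 (nuclei weighted alike) over all nuclei. Of 513 values of the other 5 genes, 476 lay inside the reported intervals, 37 lay outside and 16 were past 1.5-fold. Thinned Apoo in CA1 and dentate granule nuclei, given above, was among the 37.

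The count of the 6 genes past 1.5-fold moved where Apool dropped under the UMI floor or under the 1.5-fold line, or another gene crossed that line. Thinned, it was 0 in CA1, CA3 and subicular or cortical nuclei, 2 in inhibitory nuclei (Immt at -0.88 and Opa1 at -0.64, both lower) and 1 in astrocytes (Immt at 0.96). With a floor of 200 UMIs it was 0 in CA3, subicular or cortical, inhibitory and oligodendrocyte nuclei. With at least 1000 genes per nucleus it was 0 in subicular or cortical nuclei and 1 in astrocytes, and with at most 1% mitochondrial UMIs it was 1 in astrocytes, Chchd6 in both. With nuclei weighted alike it was 2 in subicular or cortical nuclei and 2 in oligodendrocytes, where Apoo joined Apool at 1.00 and 0.64. With the largest cluster alone it was 0 in both. In that oligodendrocyte cluster Apool was over the floor, with 44 heterozygote and 21 wild-type UMIs, but its log2 ratio was 0.51 (-0.27 to 1.34). Under the median depth the count was 2 in subicular or cortical nuclei, Apoo at 1.71 and Chchd3 at -0.62, and 0 in inhibitory nuclei. At or over that depth it was 0 in subicular or cortical nuclei. Beyond the floor the cause was not tested. The shares of all genes past 1.5-fold under these settings are not given here. Nothing is therefore read about the 6 genes from these counts or from the 16 values above.

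Thinned shares with an Apool UMI in heterozygote and wild-type nuclei were 2.31% and 1.09% in dentate granule, 1.86% and 0.322% in CA1, 1.37% and 0% in CA3, 0.483% and 0% in subicular or cortical, 2.48% and 1.13% in inhibitory, 2.71% and 1.88% in astrocyte, 3.12% and 1.55% in oligodendrocyte and 1.34% and 3.67% in microglia nuclei. Left out as shallower were 72 of 5384 heterozygote and 55 of 4646 wild-type nuclei. Scaling by the median ratio moved no class by more than 0.07 on the log2 scale. No paired analysis was possible because each genotype has 1 library, and no replicate could be left out.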

Other observations

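Outside the 8 classes, Apool was also higher in heterozygote nuclei of a cluster of excitatory neurons that no regional marker list named, with 53 UMIs in heterozygote and 15 in wild-type nuclei and a log2 ratio of 2.68. Oligodendrocyte precursors, with 197 heterozygote and 198 wild-type nuclei, had 15 and 10 Apool UMIs, a log2 ratio of 0.99 (-0.26 to 2.31) that rests on fewer than 50 UMIs.

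In the CA2 class, Tmem11, an inner-membrane gene tied to cristae shape, had 19 UMIs (6.08 CPM) in heterozygote nuclei and 53 UMIs (13.5 CPM) in wild-type nuclei, a log2 ratio of -1.15 (-1.99 to -0.37). In microglia, Micos13 had 58 UMIs (112 CPM) in heterozygote and 26 UMIs (65.6 CPM) in wild-type nuclei (0.78, with an interval above 0), and Atp5l had 151 UMIs (293 CPM) and 73 UMIs (184 CPM), a log2 ratio of 0.67 (0.26 to 1.09). Atp5k was lower in heterozygote CA3 nuclei, with 77 UMIs (18.6 CPM), against 91 UMIs (29.4 CPM) in wild type (-0.66, -1.11 to -0.20). These 4 genes were singled out after their values were seen, and each comes from 1 library per genotype.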
